A study of Mus musculus with 6 samples.

Results

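Accessible regions inside very long genes were described in dopaminergic nuclei of the mouse ventral tegmental area after knockdown of Ogt. A gene counted as very long when its RefSeq bounds on mm10 spanned at least 500 kb, and 216 protein-coding genes on chromosomes 1 to 19 did. Of 193148 regions in the deposited tables, 21378 lay inside such a gene and at least 1 kb from either of its bounds, and 21262 of these passed the filter on low counts. They fell in 215 genes, since Skint5 held none, and 183 of them lay inside 2 or more very long genes. In knockdown, fewer of these regions gained accessibility than regions elsewhere, while losses were about as frequent as elsewhere. Gains were most frequent among the few regions at internal start sites, and regions near starts in genes under 100 kb also gained often. The summed reads of genes such as Ntm, Tenm2, Grm7 and Pde1c fell.

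Very long genes consist mostly of introns, which hold many enhancers and internal promoters. In neurons they include many genes for cell adhesion molecules, ion channels and synaptic proteins, and their transcription takes long and relies on topoisomerases that relieve DNA twist. Several are also known as common fragile sites, where DNA breaks under replication stress.

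The study asked how chromatin accessibility changes in these neurons when Ogt is lowered; Ogt encodes the enzyme that adds O-GlcNAc to nuclear and cytoplasmic proteins. Sorted EGFP+ nuclei were profiled by ATAC-seq, in which a transposase cuts open DNA. The knockdown group carried the genotype Ogtflox+/Y and the control group Ogtflox-/Y, with 3 libraries each; the Y marks both as male, and age is not given in the sources used here. Both genotypes received AAV-TH-Cre, a Cre vector named for tyrosine hydroxylase, and AAV-DIO-H2B-EGFP, a Cre-dependent nuclear label, in the ventral tegmental area, so the virus and Cre were shared by both groups. Nuclei were included by Cre activity and not by a dopaminergic protein. Because nuclei were measured in bulk, a change in the mix of nuclei and a change within them cannot be told apart. Knockdown replicate 1 has the knockdown genotype in its genotype label and the control genotype in its title. Calls of named genes and regions that were lost without it are pointed out below. The labels do not say that libraries came from separate animals, so the p-values cover the spread among these 6 libraries, and that spread may be technical.

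Library totals ran from 34384319 to 66853563 reads, and 31.0% to 38.2% of reads fell in regions. Levels below are CPM, the read count relative to all reads in regions with TMM scaling, and 3 reads equal 0.117 to 0.238 CPM, depending on the library. Per library, the median region inside a very long gene had 23 to 51 reads. Over these regions the correlation of log2 CPM was 0.883 to 0.921 within control, 0.851 to 0.870 within knockdown and 0.668 to 0.801 between groups. The most accessible region at Ogt, on chromosome X at 101639785 to 101640185, had 11.1, 11.1 and 9.09 CPM in control and 17.9, 14.98 and 14.7 CPM in knockdown; which exons were floxed is not stated, so this region does not check the genotype. Regions of all 12 dopaminergic markers were present, and their summed level was 567 to 774 CPM in control and 616 to 678 CPM in knockdown. Th alone had 184 to 384 CPM in control and 177 to 243 CPM in knockdown. Of the 82 regions of these markers 11 rose and 1 fell, and 3 of the 12 genes were higher in every knockdown library. For Slc6a3, the dopamine transporter, the sum was 4.79 to 5.73 CPM in control and 4.99 to 6.02 CPM in knockdown. Summed astrocyte markers had 258 to 290 CPM in control and 376, 278 and 381 CPM in knockdown replicates 1 to 3. Among their 67 regions 24 rose and 5 fell, and 5 of 10 genes were higher in every knockdown library. Oligodendrocyte markers had 233 to 255 CPM in control and 304, 204 and 231 CPM in knockdown, and 14 of their 50 regions rose and 6 fell. Microglial markers had 52.7 to 55.8 CPM in control and 40.8 to 45.2 CPM in knockdown, with Cx3cr1, Tmem119, Aif1 and Itgam at no region. Among 15 microglial regions 1 rose and 1 fell. Markers of GABAergic and glutamatergic neurons had 185 to 209 CPM in control and 221 to 243 CPM in knockdown, and 10 of their 41 regions rose and 4 fell. The GABAergic genes Gad1, Gad2 and Slc32a1 were higher in every knockdown library. For Pvalb, Sst and Vip of the same list the groups overlapped and no region was called. The glutamatergic gene Slc17a7 was lower in every knockdown library, and 3 of 11 regions of Slc17a6 fell and none rose. Endothelial and mural markers had 132 to 136 CPM in control and 136, 114 and 123 CPM in knockdown. Of their 35 regions 9 were lower and 5 higher. Cldn5, Kdr, Rgs5, Pdgfrb and Kcnj8 were lower in every knockdown library, and Pecam1 was higher. Over all regions tested, 12.7% were lower and 15.4% higher. Of all genes, on sums over their interior regions, 25.6% were higher and 21.4% lower in every knockdown library. The part of these cell types in the results below was not tested.

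Internal start sites were the places inside very long genes where gains were most frequent, and 5 of their sequences show what kinds of DNA they are. RefSeq starts of GRCm38.p6, the assembly called mm10, were matched by symbol for 169 of the 216 genes. The sequences are the 250 bases before internal starts whose region overlapped those bases, chosen as the 3 with the largest and the 2 with the smallest log2 fold change among called regions. Letters run 5′ to 3′ on the gene's strand, and capitals mark CpG dinucleotides. Ank2 encodes a spectrin-binding ankyrin, Cadps2 a priming factor of dense-core vesicles, Mgat4c an N-glycan branching enzyme family member, Cntnap2 the axonal adhesion protein Caspr2, and Schip1 a partner of schwannomin. The Ank2 bases lie at chr3:127409059-127409308 (minus strand), those of Cadps2 at chr6:23839422-23839671 (minus strand) and those of Mgat4c at chr10:102158608-102158857 (plus strand). Those of Cntnap2 lie at chr6:47244146-47244395 and those of Schip1 at chr3:68467933-68468182, both on the plus strand.
Ank2: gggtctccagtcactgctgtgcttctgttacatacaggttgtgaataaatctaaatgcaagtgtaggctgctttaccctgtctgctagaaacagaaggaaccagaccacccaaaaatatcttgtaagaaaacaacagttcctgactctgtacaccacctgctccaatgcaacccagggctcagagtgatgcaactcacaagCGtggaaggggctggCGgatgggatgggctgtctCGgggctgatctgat
Cadps2: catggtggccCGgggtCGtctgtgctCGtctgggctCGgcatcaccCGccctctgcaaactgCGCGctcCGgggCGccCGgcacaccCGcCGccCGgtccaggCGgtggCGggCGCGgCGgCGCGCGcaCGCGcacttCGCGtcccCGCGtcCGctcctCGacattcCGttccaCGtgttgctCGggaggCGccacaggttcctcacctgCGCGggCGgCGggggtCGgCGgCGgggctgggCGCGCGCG
Mgat4c: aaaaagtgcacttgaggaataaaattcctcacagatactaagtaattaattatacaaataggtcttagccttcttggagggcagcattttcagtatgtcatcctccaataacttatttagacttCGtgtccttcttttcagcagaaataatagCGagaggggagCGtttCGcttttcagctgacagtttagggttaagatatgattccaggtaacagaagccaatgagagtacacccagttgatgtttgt
Cntnap2: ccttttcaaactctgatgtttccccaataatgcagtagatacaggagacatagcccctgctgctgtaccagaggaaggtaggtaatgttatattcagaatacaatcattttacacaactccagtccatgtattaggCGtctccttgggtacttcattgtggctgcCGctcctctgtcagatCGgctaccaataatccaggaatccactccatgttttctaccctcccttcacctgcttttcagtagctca
Schip1: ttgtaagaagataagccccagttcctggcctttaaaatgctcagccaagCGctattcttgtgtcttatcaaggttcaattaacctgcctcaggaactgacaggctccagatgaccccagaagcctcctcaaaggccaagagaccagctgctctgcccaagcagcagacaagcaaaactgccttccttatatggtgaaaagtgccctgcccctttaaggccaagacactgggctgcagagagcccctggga

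The Cadps2 sequence differed in kind from the other 4, with 44 CpG dinucleotides and 78.0% G and C. Ank2 held 3 CpG, Mgat4c 4, Cntnap2 3 and Schip1 1, with 38.4% to 51.6% G and C. A GC box (GGGCGG, either strand) occurred only in Cadps2 among these 5, where it was found 3 times. Neither the STAT motif TTCNNNGAA nor the AP-1 motif TGANTCA was found in any of them. Of all 32851 starts of the table, 32.7% held the GC box, 7.02% the STAT motif and 6.75% the AP-1 motif in 250 bases. Of 96 internal starts with a region, these shares were 34.4%, 5.21% and 7.29%. The median was 10.5 CpG at the 38 starts whose region rose, 7 at the 54 not called and 2 at the 4 whose region fell, beside 6 over all starts.

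At the Ank2 start the region had 26.4, 23.3 and 24.1 CPM in control and 38.9, 37.2 and 44.6 CPM in knockdown. All knockdown libraries were above all controls, and the region rose by 0.72 on the log2 scale (SE 0.10, adjusted p = 1.2e-04, edgeR's quasi-likelihood test with Benjamini-Hochberg adjustment over all regions). The Cadps2 region had 4.94, 9.57 and 8.66 CPM in control and 13.2, 13.6 and 11.4 CPM in knockdown, a log2 fold change of 0.68 (adjusted p = 0.011, edgeR). The Mgat4c region had 7.75, 8.52 and 8.85 CPM in control and 13.5, 12.5 and 13.2 CPM in knockdown, a log2 fold change of 0.64 (adjusted p = 0.0022, edgeR). The groups did not overlap at any of these 3 starts, although scaling by library totals removed the calls at Cadps2 (0.42) and Mgat4c (0.37). The Cntnap2 region went the other way, from 19.98, 15.4 and 17.3 CPM in control to 7.33, 10.1 and 8.17 CPM in knockdown. It fell by 1.04 on the log2 scale (SE 0.15, adjusted p = 9.8e-05, edgeR) without overlap of the groups. The Schip1 region had 2.89, 3.12 and 3.60 CPM in control and 2.19, 1.82 and 1.93 CPM in knockdown, a log2 fold change of -0.70 (adjusted p = 0.030, edgeR). That call was lost with DESeq2 (adjusted p = 0.10) and when control replicate 2 or 3 or knockdown replicate 2 or 3 was left out.

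Over all regions inside very long genes, 1705 (8.02%, exact 95% binomial interval 7.66% to 8.39%) were called higher in knockdown and 2843 (13.4%, 12.9% to 13.8%) lower, at an adjusted p under 0.05. Over all 191693 regions tested, 15.4% were called higher, 12.7% lower and 28.1% in either direction. The share of losses was therefore near the background and the share of gains under it. The intervals cover counting error only, and regions of a gene are not independent. The median log2 fold change was -0.09 (quartiles -0.48 and 0.30), against -0.01 for all regions. Changes of at least 2-fold made up 810 of the 1705 gains and 1250 of the 2843 losses. Over all regions they made up 12775 of 29589 gains and 9796 of 24251 losses. All knockdown libraries lay above all controls in 14.7% of regions inside very long genes and below them in 23.2%, against 21.0% and 21.2% of all regions.

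Both directions depend on the scaling. The median of all regions was -0.01 with TMM, -0.12 with scaling by reads in regions and -0.27 with library totals, and gains made up 37.5%, 24.3% and 11.7% of the called regions inside very long genes. The median of these regions was 0.09 under that of all regions on the log2 scale in each of the 3 scalings. A scaling moves all regions by about the same amount, so this difference could hardly change and is no check. With each library left out in turn, 1095 to 1581 regions were called higher and 1633 to 2867 lower; without knockdown replicate 1 the counts were 1418 and 1868. DESeq2 called 996 higher and 1575 lower, against 10.9% and 7.69% of all regions.

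The share of gains fell with gene length already below the 500 kb limit. Among regions whose longest enclosing gene was under 100 kb, 16.6% were higher and 12.5% lower. In genes of 100 to 200 kb the shares were 11.8% and 13.4%, and in genes of 200 to 500 kb they were 9.11% and 14.6%. Genes of 500 to 1000 kb had 8.10% and 14.0%, and genes of 1000 kb or more had 7.90% and 12.5%. The low share of gains was thus shared with genes of 200 to 500 kb, whose interval (8.78% to 9.46%) lay just above that of genes over the limit.

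**Figure D1:**
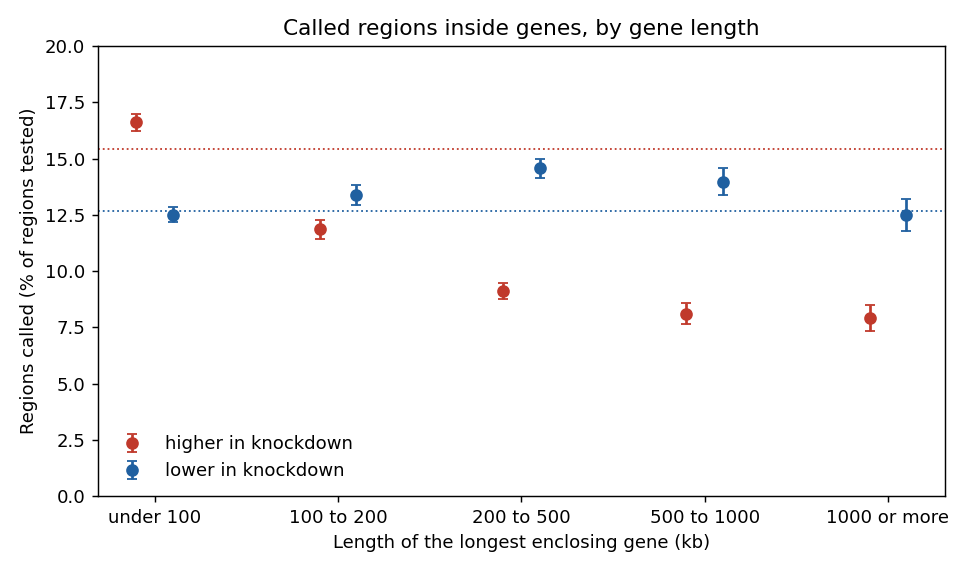
Percent of regions called higher (red) and lower (blue) in knockdown, by length of the longest enclosing gene in kb; bars are exact 95% binomial intervals and dotted lines the shares of all regions. Gains fall from 16.6% in genes under 100 kb to 7.90% in genes of 1000 kb or more, while losses stay between 12.5% and 14.6%.

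Regions inside very long genes were slightly less accessible than others, with a median of 1.88 CPM against 2.57 CPM in genes under 100 kb, so short-gene regions were weighted to the same accessibility in 20 bins. After this matching, 14.4% of short-gene regions were called higher and 11.9% lower. Very long genes had 6.37 points fewer gains and 1.43 points more losses, and their median log2 fold change was 0.07 lower. The share of gains was lower in very long genes in all 20 bins and the share of losses higher in 18. In the most accessible bin, at a median of 10.2 CPM, 21.1% of regions in very long genes and 30.8% in short genes were higher. The difference in losses was small: it ran from 0.0935 points without knockdown replicate 1 to 1.91 points without knockdown replicate 2.

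**Figure D2:**
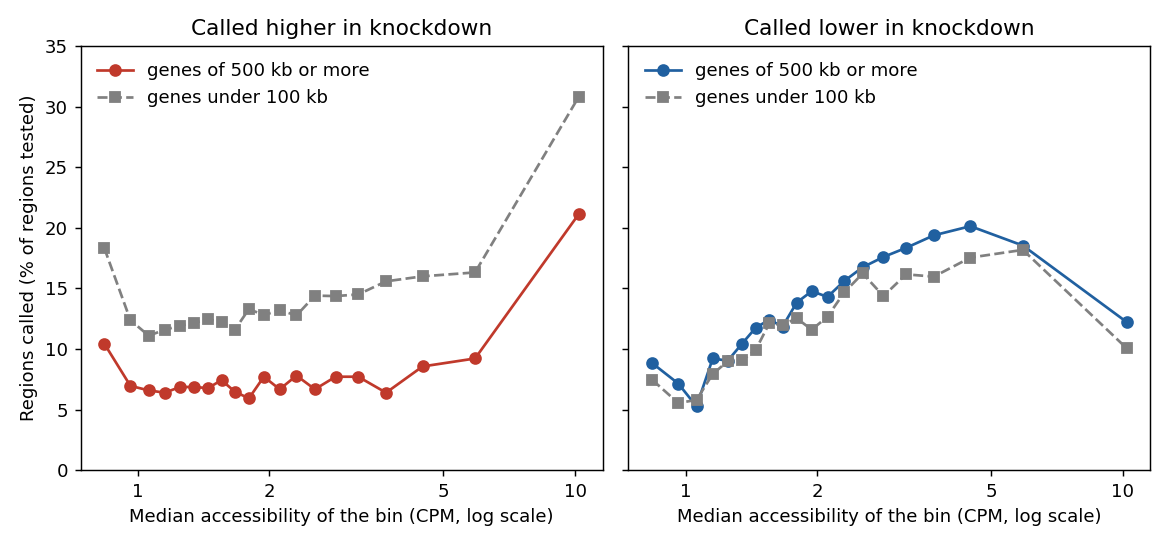
Percent of regions called higher (left) and lower (right) in 20 bins of accessibility (median CPM, log axis) for very long genes (circles) and genes under 100 kb (squares). Gains are fewer in very long genes in each bin, while the lines for losses lie close together.

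Distance from start sites differed between the classes and moved with the share of gains. The median distance to the nearest RefSeq start was 136472 bp inside very long genes and 15328 bp inside short genes. Within 1 kb of a start, 26.5% of 268 regions in very long genes rose and 7.46% fell, beside 35.9% and 6.18% in short genes. From 1 to 10 kb, 8.84% rose in very long genes and 21.4% in short ones; from 10 to 100 kb the shares were 7.25% and 12.2%, and beyond 100 kb 8.04% and 14.4%. When regions were matched on accessibility and on these distance classes together, an alternative chosen after seeing the data, the difference in gains was -4.40 points and that in losses 1.05 points. Chromosome 18 was left out there, since its starts were not used.

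The libraries were also compared one by one. Regions inside very long genes took 5.99%, 6.34% and 6.21% of region reads in control and 5.24%, 5.76% and 5.55% in knockdown, or 6.18% ± 0.178 and 5.52% ± 0.261 (SD, n = 3). Each knockdown library lay below each control library, whereas short-gene regions took 17.8% in both groups on average. The mean log2 CPM of very long genes minus that of matched short-gene regions was -0.01, 0.07 and 0.04 in control and -0.13, 0.01 and -0.08 in knockdown. Here the groups overlapped, since knockdown replicate 2 lay above control replicate 1, and the mean difference between groups was -0.10.

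**Figure D3:**
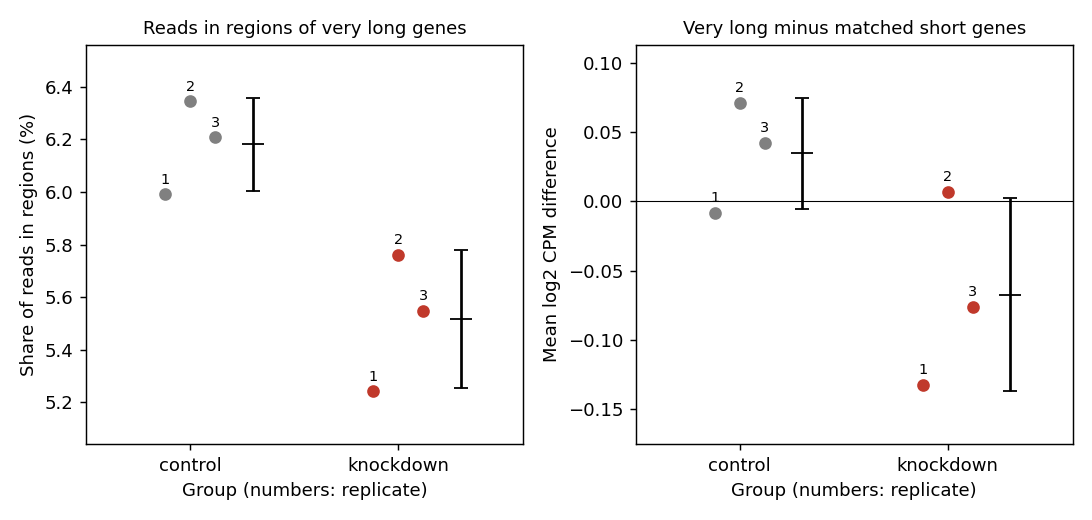
Left, percent of region reads inside very long genes in each library; right, mean log2 CPM of very long genes minus matched short-gene regions; numbers are replicates, bars the mean ± SD of 3 libraries, and neither axis starts at 0. The read shares of the groups do not overlap (5.24% to 5.76% against 5.99% to 6.34%), while on the right knockdown replicate 2 lies among the controls.

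Along the body of a gene the changes were evenly spread. In 5 equal parts of gene length from start to end, for genes of known strand, 7.52% to 8.09% of regions rose and 12.8% to 14.5% fell. Of 1063 adjacent pairs inside a gene with both regions called, 771 (72.5%) had the same direction, near the 73.4% of neighbouring pairs among all regions. By distance the shares differed: 75.2% against 82.0% of all regions' pairs within 5 kb, and 69.3% against 63.5% over 5 kb to 20 kb. Of the 771 pairs 235 were gains and 536 losses, whereas over all regions 7994 were gains and 4694 losses. Runs of at least 4 adjacent called regions in one direction numbered 39 in 31 genes. Of these runs 34 (87.2%) were losses, against 228 of 781 runs (29.2%) over all regions. The direction of pairs and runs depends on the balance of calls. That balance was 1705 gains to 2843 losses inside very long genes and 29589 to 24251 over all regions. Whether runs went beyond it was not tested. The 17 longest runs had 5 regions over 7.44 to 49.4 kb, in genes including Rbfox1, Cntn5, Ryr3 and Kcnma1 (losses) and Trpm3 and Nav2 (gains).

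Start sites and bodies of the same gene often differed. At the outer start of 116 genes, 119 regions within 500 bp were tested, nearly all outside the 1 kb limit above; 53 (44.5%) rose and 6 (5.04%) fell. At internal starts 34 of 89 regions (38.2%) rose and 4 (4.49%, in Cntnap2, Schip1, Pde1c and Mctp1) fell, beside 15.4% and 12.7% of all regions. Of short-gene regions within 1 kb of a start, a wider window, 35.9% rose and 6.18% fell. Frequent gains at starts were thus not particular to very long genes. In 91 of the 116 genes the log2 fold change of the start exceeded that of the reads summed over the body. That comparison does not depend on the scaling of libraries, and it was not made for shorter genes. In genes under 100 kb too, gains were more frequent within 1 kb of a start (35.9%) than at 10 to 100 kb (12.2%). In Cdk14, Clstn2, Cntnap2, Elmo1, Fat3, Lpp, Rgs6 and Syne1 the start rose and the body fell with TMM scaling. The fall of the body was lost with any single library left out for Elmo1, without any one control or knockdown replicate 1 for Cdk14, Cntnap2 and Syne1, and without control replicate 1 for Lpp. The opposite held in Fhit and in Stpg2, whose call on the sum was lost without control replicate 1 or 2. Start and body both rose in Fstl5 and Ptprk, and both fell in Dpp6 and Tafa1. At Cntnap2 the outer start had 16.3, 17.8 and 16.9 CPM in control and 22.2, 20.3 and 25.8 CPM in knockdown, a log2 fold change of 0.42 (adjusted p = 0.011, edgeR). Its internal start printed above fell over the same libraries.

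For each gene, reads were summed over its interior regions and tested over 11767 genes. Of the 215 very long genes, 23 (10.7%) rose and 39 (18.1%) fell, against 20.2% and 14.0% of all genes, or 34.2% in either direction. Their log2 fold changes ran from -0.51 to 0.82 with a median of -0.02, against 0.03 over all genes. All knockdown libraries lay above all controls in 35 of the 215 genes (16.3%), against 25.6% of all genes. They lay below all controls in 64 (29.8%), against 21.4% of all genes. With library totals the counts became 1 and 104, and with reads in regions 12 and 81. The one gain that held was Iqcm. These scalings also moved the median of all regions, to -0.27 and -0.12. Shares of all genes called under them are not given here. With any one library left out, 13 of the 23 gains and 20 of the 39 falls were called each time. Without knockdown replicate 1, 20 of the gains and 26 of the falls were still called. Among named genes the calls lost then were those of Cdk14, Cntn4, Cntnap2, Dab1, Dpp6, Elmo1, Magi1, Syne1 and Unc13c (falls, then -0.18 to -0.13) and of Grm5, Zbtb20 and Nfia (gains, then 0.15 to 0.19), at adjusted p of 0.069 to 0.18 (edgeR).

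Nearly every very long gene held changes in both directions. Regions of both directions occurred in 197 genes, gains alone in 12 and losses alone in 6. Among 211 genes with at least 10 regions tested, losses outnumbered gains in 124, gains outnumbered losses in 78, and 9 had equal numbers. The share of gains lay under that of matched short-gene regions in 174 genes, and in 91 of these the share of losses was also above the matched one. The opposite on both counts was seen in 30 genes. The median gene had 7.96% gains and 11.3% losses. Within the class, gene length had no visible relation to either share (Spearman's rho 0.0041 for gains and -0.034 for losses across genes, a description). Genes with more regions per 100 kb had fewer gains (rho = -0.45) and more losses (rho = 0.41); these genes share the same libraries and depth, and calls depend on accessibility.

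Among the 12 genes with the most regions, 5 fell and none rose on summed reads. The largest fall among them was at Ntm (neurotrimin, chr9:28994749-29963269, minus strand), a cell adhesion protein of the IgLON family. Of its 215 regions tested, 66 fell and 4 rose, or 30.7% lower against 13.8% in matched short-gene regions. Its sum was 851, 876 and 787 CPM in control and 632, 661 and 756 CPM in knockdown, with no overlap. The sum fell by 0.30 on the log2 scale (SE 0.07, adjusted p = 0.0075, edgeR).

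Tenm2 (chr11:36006656-37237053, minus strand), a teneurin that joins pre- and postsynaptic membranes, had 60 losses and 6 gains among 241 regions. Its sum was 867, 924 and 808 CPM in control and 688, 693 and 746 CPM in knockdown, a log2 fold change of -0.29 (adjusted p = 0.0047, edgeR). Rbfox1 (chr16:5884793-7412480, plus strand), a neuronal splicing regulator, had 55 losses and 9 gains among 259 regions. Its sum was 798, 831 and 767 CPM in control and 618, 682 and 712 CPM in knockdown, a log2 fold change of -0.25 (adjusted p = 0.011, edgeR). In both genes the knockdown libraries lay under all controls, but for Rbfox1 the call was lost without control replicate 2 (adjusted p = 0.064).

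Csmd1, a complement-inhibiting membrane protein, fell by 0.26 on the log2 scale (adjusted p = 0.0058, edgeR), with 44 losses among 253 regions. Cntnap2 had 595, 597 and 592 CPM in control and 498, 549 and 529 CPM in knockdown, a fall by 0.18 (adjusted p = 0.035, edgeR) that was lost without knockdown replicate 1 and without any one control. The other 7 did not pass. Lsamp, another IgLON protein and the gene with the most regions (366 tested), had 902, 924 and 866 CPM in control and 817, 831 and 847 CPM in knockdown, a log2 fold change of -0.11 (adjusted p = 0.15, edgeR). Opcml and Macrod2 had log2 fold changes of -0.16 and -0.09, and the presynaptic receptor Nrxn3 of 0.17. The postsynaptic scaffold gene Dlg2 had 0.08 and the receptor phosphatase gene Ptprd 0.04.

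**Figure D4:**
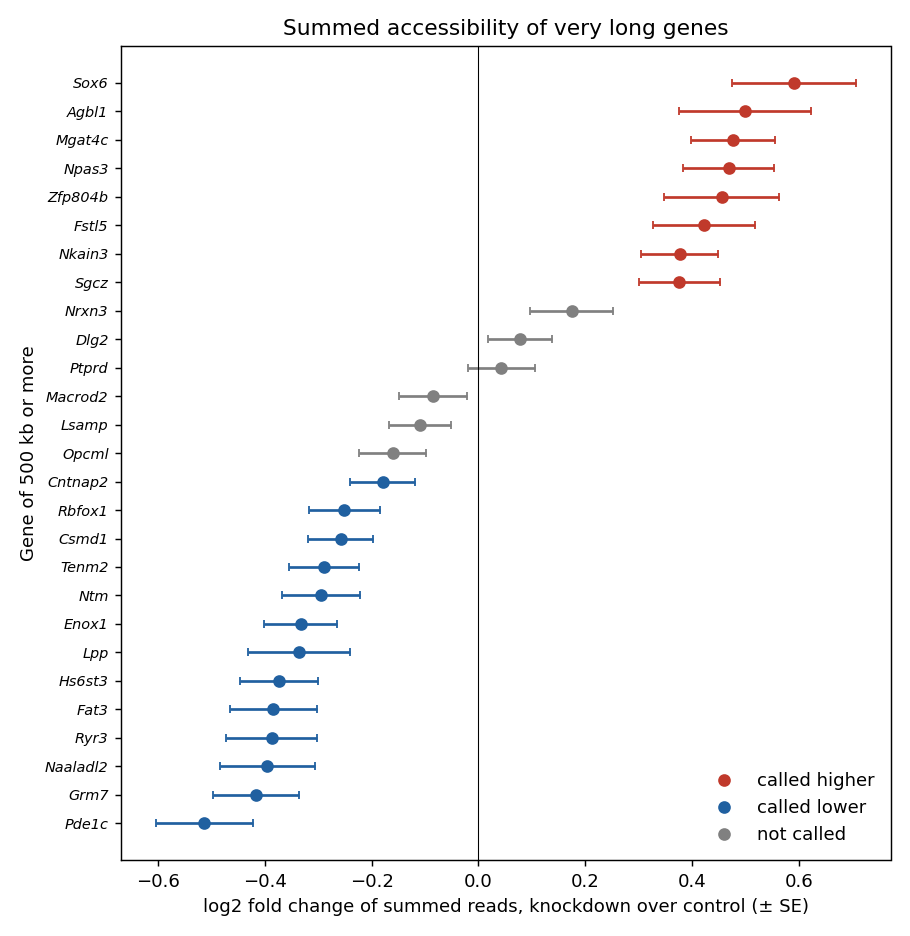
Log2 fold change (knockdown over control, ± SE) of reads summed over the interior regions of very long genes. Shown are genes with the most regions and, of genes with at least 10 regions, the 8 called with the largest change per direction. Genes called higher run from 0.38 (Sgcz) to 0.59 (Sox6) and genes called lower from -0.18 (Cntnap2) to -0.51 (Pde1c), while genes in grey, such as Lsamp and Dlg2, were not called.

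The largest fall of a gene with at least 10 regions was at Pde1c (chr6:56069798-56652510, minus strand), a calcium- and calmodulin-stimulated phosphodiesterase of cyclic nucleotides. Its sum was 96.4, 84.3 and 76.3 CPM in control and 60.3, 61.2 and 58.2 CPM in knockdown. The groups did not overlap, and the log2 fold change was -0.51 (SE 0.09, adjusted p = 0.0010, edgeR). Of 32 regions 13 fell and none rose, or 40.6% against 11.2% in matched short-gene regions. Grm7 (chr6:110645349-111567230, plus strand), a presynaptic group III metabotropic glutamate receptor, had 311, 292 and 251 CPM in control and 203, 211 and 225 CPM in knockdown. Every knockdown library was lower, and the sum fell by 0.42 (SE 0.08, adjusted p = 0.0018, edgeR), with 32 losses and 3 gains among 125 regions.

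Fat3 (chr9:15910189-16502681, minus strand), an atypical cadherin known from retinal neurons, had 336, 325 and 297 CPM in control and 242, 220 and 272 CPM in knockdown. It fell by 0.38 on the log2 scale (adjusted p = 0.0030, edgeR), with 32 losses and 2 gains among 105 regions. Its outer start rose, from 31.4, 32.4 and 32.5 CPM to 42.8, 37.7 and 45.7 CPM. Falls of 0.33 to 0.40 were also called at Naaladl2, at the calcium-release channel Ryr3, at the heparan sulfate sulfotransferase Hs6st3, at the focal adhesion protein Lpp and at the surface oxidase Enox1. The Lpp call was lost without control replicate 1 (adjusted p = 0.089). By share of regions, Samd12 (15 losses, no gain of 48), Fam155a (35 of 112), Cacna1c (35 of 113) and St6galnac3 (24 of 85) followed Pde1c. The sum of Cacna1c, the pore of the L-type calcium channel, was not called (-0.17, adjusted p = 0.062, edgeR).

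The largest gain of a gene with at least 10 regions was at Sox6 (chr7:115470872-116040776, minus strand), a transcription factor that marks a subset of midbrain dopaminergic neurons and is also expressed in glial precursors. Its sum was 40.3, 41.0 and 46.8 CPM in control and 76.2, 53.3 and 63.6 CPM in knockdown. The groups did not overlap, and the log2 fold change was 0.59 (SE 0.12, adjusted p = 0.0019, edgeR), with 9 gains and no loss among 30 regions. Npas3 (chr12:53248026-54072173, plus strand), a transcription factor of neural progenitors and astrocytes, had 219, 273 and 249 CPM in control and 366, 312 and 349 CPM in knockdown. It rose by 0.47 (adjusted p = 0.0012, edgeR), with 36 gains and 4 losses among 129 regions. Nfia, a factor of gliogenesis, had 203, 185 and 206 CPM in control and 294, 206 and 228 CPM in knockdown, with knockdown replicate 2 no higher than control replicate 3. Its log2 fold change of 0.29 (adjusted p = 0.043, edgeR) was 0.15 without knockdown replicate 1 and no longer called. The call was also lost without any one control, without knockdown replicate 3 and under both other scalings, so that 3 of 10 alternatives kept it.

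In these 3 genes knockdown replicate 2 was the lowest knockdown library, as it was for summed astrocyte markers (278 CPM, against 376 and 381 CPM). Inside very long genes, replicates 1, 2 and 3 were the lowest knockdown library in 32.8%, 37.1% and 30.1% of gains, which is close to even. Among other gains replicate 2 was the lowest in 50.2%. The part of astrocytes in the result was not tested. Some other genes that rose had another order of libraries or a narrower spread. Mgat4c (chr10:101681487-102391851, plus strand) had 88.3, 105 and 92.0 CPM in control and 133, 130 and 135 CPM in knockdown, where the 3 libraries were close. It rose by 0.48 (adjusted p = 6.6e-04, edgeR), with 16 gains and 1 loss among 58 regions. Nkain3, which encodes a protein that interacts with the sodium pump, had 118, 129 and 135 CPM in control and 166, 170 and 161 CPM in knockdown, with replicate 2 the highest. It rose by 0.38 (adjusted p = 0.0017, edgeR). Fstl5, a secreted follistatin-like protein, had 36.2, 43.4 and 43.1 CPM in control and 52.7, 59.4 and 53.2 CPM in knockdown, with replicate 2 again the highest; it rose by 0.42 (adjusted p = 0.0043, edgeR). Agbl1, a carboxypeptidase that shortens polyglutamate chains, Zfp804b and Sgcz rose by 0.50, 0.46 and 0.38. All 8 genes lost their calls when libraries were scaled by library totals; for Sox6 the log2 fold change was then 0.33 (adjusted p = 0.068, edgeR) and for Mgat4c 0.22 (adjusted p = 0.15, edgeR).

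**Figure D5:**
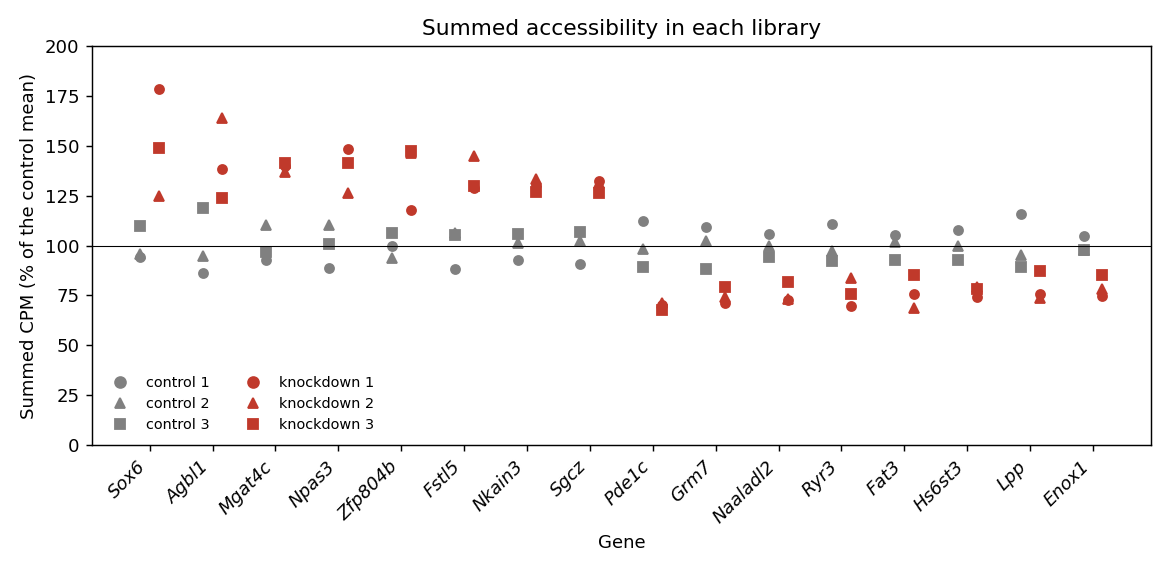
Summed CPM of each library as a percent of the control mean, with grey symbols for control and red symbols for knockdown replicates 1 to 3. Genes are the 8 called with the largest gain and the 8 with the largest loss among those with at least 10 regions. No knockdown library overlaps the controls in any of the 16 genes, with narrow gaps in Lpp (161 CPM in knockdown replicate 3 against 165 CPM in control replicate 3) and Agbl1 (48.4 CPM against 46.4 CPM).

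Sorted by role, the groups lay on both sides of the shares over all genes (20.2% higher and 14.0% lower). By number the most falls (14 of 65, 21.5%) were in genes on no list, the largest group. The share of falls was higher in ion channel genes (28.6%) and in fragile-site and organelle genes (23.5%). Of 40 very long genes for synaptic and cell adhesion, 7 fell (Ntm, Tenm2, Csmd1, Cntn5, Astn2, Cntn4 and Cntnap2) and 2 rose (Csmd3 and Sgcz), or 17.5% and 5.00%, with a median of -0.02. The fall was lost for Cntn4 without any one control or knockdown replicate 1 or 3, for Astn2 without control replicate 1 or 2 and for Cntn5 without control replicate 1. Csmd3 had 228, 233 and 221 CPM in control and 290, 286 and 296 CPM in knockdown, and rose by 0.36 (adjusted p = 9.2e-04, edgeR), opposite to its relative Csmd1. Of 5735 regions in adhesion genes 7.08% rose and 12.8% fell, the latter near the 12.7% of all regions. Among 14 ion channel genes 4 fell (the ryanodine receptors Ryr2 and Ryr3, the large-conductance potassium channel Kcnma1 and the potassium channel subunit Dpp6) and 1 rose (Trpm3). The Dpp6 fall was lost without any one control or knockdown replicate 1. Regions of channel genes had 7.02% gains and 16.3% losses. The gain of Trpm3, a heat-activated cation channel, was 0.21 with TMM and turned to -0.06 without a call under library totals; it was also lost without any one control.

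Of 8 neurotransmitter receptor genes, 1 fell (Grm7) and 2 rose. The gain of Grm5, a group I metabotropic receptor, was 0.20 and turned to -0.07, not called, under library totals; it was lost too without any one control or knockdown replicate 1. Of 14 axon guidance and receptor phosphatase genes 2 rose (Ptprt, lost without control replicate 1, and Ptprk) and 1 fell (Dab1, the adaptor of reelin signalling, lost without control replicate 2 or 3 or knockdown replicate 1). Of 15 scaffold and release genes 3 fell (Kalrn, a guanine exchange factor of dendritic spines, Unc13c, a vesicle-priming protein, and Magi1, a junction scaffold) and none rose. The Unc13c fall was lost without control replicate 1 or 2 or knockdown replicate 1, and the Magi1 fall without any one control or knockdown replicate 1. The medians of the axon guidance and scaffold groups, 0.00 and 0.01, lay near the 0.03 of all genes.

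Signalling genes had 3 falls (Pde1c, Rgs6 and Elmo1) and 2 gains (Fstl5 and Dock1) among 22, although the Dock1 value turned to -0.03, not called, under library totals and its call was lost without control replicate 1 or 2. The Elmo1 fall was lost with any single library left out. Among 20 transcription and RNA-binding genes 5 rose (Sox6, Npas3, Zfp804b, Nfia and Zbtb20) and 2 fell (Rbfox1 and the histone deacetylase gene Hdac9); Zbtb20 turned to -0.06, not called, under library totals, and was lost without control replicate 2 or 3 or knockdown replicate 1. Their regions had 9.24% gains and 14.0% losses. Among 17 fragile-site and organelle genes 5 rose (Agbl1, Nkain3, Fhit, Dpyd and Nkain2, the last turning to -0.04, not called, under library totals) and 4 fell, among them Naaladl2, Fam155a and Agbl4. Calls were lost for Fhit and Fam155a without control replicate 2, for Dpyd without control replicate 1 or 2 and for Nkain2 without control replicate 2 or 3. The fragile-site gene Wwox had a log2 fold change of -0.14 and was not called. The remaining 65 tested genes on no list had 4 gains and 14 falls.

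Single regions changed far more than whole genes. The Cdh13 region at chr8:118830272-118830672, inside a T-cadherin gene, had 2.81, 3.05 and 2.32 CPM in control and 17.0, 17.1 and 18.3 CPM in knockdown. It rose by 2.68 on the log2 scale (SE 0.16, adjusted p = 1.3e-08, edgeR), while the sum over Cdh13 changed by 0.09 and was not called. A pair of regions inside Lhfpl3, starting at 23214667 and 23167927 on chromosome 5, rose by 3.11 and 2.77, and a region of the calsyntenin gene Clstn2 rose by 2.81. These Lhfpl3 and Clstn2 regions had only 5 to 22 reads per control library. The Clstn2 body fell by 0.28 over the same libraries. The largest fitted gain, at Dock2 (chr11:34739003-34739403), rested on a single library: it had 0.38, 0.35 and 0.57 CPM in control and 10.96, 0.79 and 1.20 CPM in knockdown. Without knockdown replicate 1 its log2 fold change was 1.21 and not called (adjusted p = 0.078, edgeR). Another large gain, at the fibrocystin gene Pkhd1, rested on 3 to 6 reads per control library.

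Losses of single regions reached a similar size. The Arhgap24 region at chr5:102373687-102374087, inside a Rac GTPase-activating protein gene, had 5.55, 6.37 and 5.92 CPM in control and 1.44, 1.11 and 1.06 CPM in knockdown. It fell by 2.31 (SE 0.23, adjusted p = 3.2e-06, edgeR) with tight replicates. The Pcdh15 region at chr10:73809322-73809722, inside a protocadherin gene, had 6.99, 4.57 and 2.89 CPM in control and 0.91, 0.87 and 0.60 CPM in knockdown, a fall by 2.57 (adjusted p = 5.1e-05, edgeR). Regions of Lrrc4c, Erc2, Astn2 and Grm7 fell by 2.30 to 2.72, to only 0 to 18 reads per knockdown library. The most accessible regions all rose, by 0.35 to 0.61, in Camta1, Sema6d, Nrxn3, Nav2, Cdh18 and Magi2. The Nrxn3 region at chr12:89811876-89812552 lies at an internal start and had 38.2, 37.8 and 39.2 CPM in control and 55.6, 57.5 and 62.5 CPM in knockdown, a rise by 0.61 (adjusted p = 1.7e-04, edgeR). Under library totals the calls at Camta1 (0.11), Cdh18 (0.09), Nav2 (0.25) and Sema6d (0.24) were lost. The Camta1 call was also lost without control replicate 3 (adjusted p = 0.065, edgeR) and without knockdown replicate 3 (adjusted p = 0.050, edgeR).

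Genes just above and just below the length limit showed no common pattern. Edil3, at 501754 bp, had 9 gains and no loss among 38 regions, Dock1, at 502961 bp, had 9 and 8 among 50, and Samd12, at 503423 bp, had no gain and 15 losses among 48. Just below the limit, Dnm3, at 495872 bp, had 10 and 9 among 78, Lrrc7, at 494798 bp, had 5 and 21 among 98, and Cacna1e, at 493980 bp, had no gain and 14 losses among 83.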

How the data were processed

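The submitters' processing notes list BWA, MACS2, SAMtools 1.9, Picard, Trimmomatic, FastQC and mm10 with no role for each. How reads were counted or shifted and how regions were made is not given in the sources used here. Per the file headers, the columns hold counts of reads, RPKM and a score for common regions. The deposited counts were not normalized and were tested directly. The deposited RPKM values were used only to recover library totals, and the deposited score was not used.

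Gene bounds came from the RefSeq table of GRCm38.p6, which gives no exons, so exonic, intronic and UTR positions could not be separated. Strand and starts came from the RefSeq promoter table, which covered 169 of the 216 genes. Regions at least 1 kb inside a gene, with the longest enclosing gene under 100 kb, formed the comparison set. Counts of all regions were fitted in R 4.3.3 by edgeR 4.0.16 (quasi-likelihood test) on group alone, using TMM scaling, the package's filter on low counts and Benjamini-Hochberg adjustment over all regions tested. Sums per gene used the same library sizes and TMM factors, with a region counted for each gene that encloses it. The fit and the matching were tested on simulated data.

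Named genes were the 12 with the most regions, the 8 called sums with the largest change in each direction with at least 10 regions, and the 8 with the largest share of gains and of losses; named regions were the 6 largest called changes per direction at 1 CPM or more and the 6 most accessible. Called members of role lists, genes in which start and body differed, genes with runs, genes at the length limit and a few further genes (Csmd3, Iqcm, Wwox, Cdh13 as a sum) were named after their values were seen. A few genes count in the totals but are not described singly. The members and lists were chosen with earlier results of these data known. Alternatives were DESeq2 1.42.0, 2 other scalings, no filter, each library left out, grouping by title, a 1000 kb length limit, 10 kb from gene bounds, no nested short genes, 10 or 50 bins and, chosen after seeing the data, matching on distance to a start.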

Additional observations from a re-analysis of the deposited data

How the results depend on the processing

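The lower median log2 fold change of very long genes kept its direction in every alternative with the genotype label, as did the smaller share of gains. For the median, the other scalings were no check, since they move all regions about alike. The difference in gains (in points, very long minus matched short genes) was -5.05 with DESeq2, -4.71 with library totals, -5.82 with reads in regions, -7.45 to -4.53 with each library left out, -4.01 at 10 kb from gene bounds and -4.40 with matching on distance to a start. The difference in losses was 0.679 with DESeq2, 2.27 with library totals, 0.0935 to 1.91 with each library left out and 0.901 in genes of 1000 kb or more.

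Regions called higher and lower numbered 996 and 1575 with DESeq2 (10.9% and 7.69% of all regions), 724 and 5454 with library totals, 1095 to 1581 and 1633 to 2867 with each library left out, and 668 and 1055 in genes of 1000 kb or more. Genes called higher and lower numbered 1 and 104 with library totals, 12 and 81 with reads in regions, 14 to 27 and 22 to 52 with each library left out, and 6 and 10 at 1000 kb or more. All 39 falls were called under DESeq2 and under both scalings, which moved the median of all regions down. The shares of all regions and all genes called under these scalings are not given here. With library totals Dock1 (-0.0314), Grm5 (-0.0658), Nkain2 (-0.0360), Trpm3 (-0.0573) and Zbtb20 (-0.0577) changed sign without a call. The cause of these changes was not tested beyond the shift of all regions given above.

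Grouping by title placed knockdown replicate 1 among the controls and left 0 regions and 0 genes called by edgeR, and differences of 0 points; 2142 of 21361 regions and 7 genes had an unadjusted p under 0.05. DESeq2 was not run with that grouping. Nfia (-0.0453) and the Dock2 region (-1.551) changed sign there. No paired analysis was possible because the labels number the libraries 1 to 6 across both groups and share no number between them.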
